A study of Mus musculus and Homo sapiens with 18 samples.

Results

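The α-crystallins and small heat shock proteins were read from RNA-seq counts of 3 systems in which *Qk*, or its human counterpart *QKI*, was deleted. *Qk* encodes Qki, a KH-domain protein known as a regulator of RNA processing. The family was taken as a list of 8 genes, *Cryaa*, *Cryab*, *Hspb1*, *Hspb2*, *Hspb3*, *Hspb6*, *Hspb7* and *Hspb8*, by mouse symbol in the lens and NLPC tables and by upper-case symbol in the HLE-B3 table. All 8 were present in each table, of 46882, 54838 and 60880 genes, respectively. Lenses came from C57BL/6 mice at P17-19, and both lens groups carried *Nestin-CreERT2*, a tamoxifen-inducible Cre under the *Nestin* promoter, and received tamoxifen at P7 and P8. Ctrl mice were labelled *Nestin-CreERT2; QkL/+* and *Qk*-iCKO mice *Nestin-CreERT2; QkL/L*, where L is an allele with loxP sites around exon 2 of *Qk*, so that Ctrl lenses also had 1 floxed allele. NLPCs are lens progenitor-like cells that were made from neural stem cells of P1 *Nestin-CreERT2; QkL/L* brains by 6 days of Noggin (100 ng/mL) and 12 days of bFGF (100 ng/mL), BMP4 (20 ng/mL) and BMP7 (20 ng/mL). Libraries labelled WT and *Qk*-/- were compared, and deletion was induced with 4-hydroxytamoxifen. HLE-B3 is an immortalized human lens epithelial cell line, for which WT and CRISPR/Cas9 *QKI* KO libraries were compared. Each group had 3 libraries (18 in all), and every mean below is given ± SD with n = 3. Nothing states that the NLPC or HLE-B3 replicates were separate cultures, so their p-values measure the spread between these libraries, which may be technical.

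Small heat shock proteins share a conserved α-crystallin domain, assemble into oligomers and bind unfolding proteins without using ATP, holding them soluble until other chaperones refold them or autophagy removes them. In the lens, αA-crystallin (*Cryaa*) and αB-crystallin (*Cryab*) are both structural proteins and chaperones, and they keep the crystallins of fibre cells, which are not replaced, in solution. *Cryab*, *Hspb1* and *Hspb8* are widely expressed or stress-inducible, while *Hspb2*, *Hspb3*, *Hspb6* and *Hspb7* are best known from muscle. Heat shock factors, Hsf1 in the stress response and Hsf4 in the lens, bind arrays of GAA units in alternating orientation.

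Promoters are shown for the 3 mouse genes of the family that passed the test below and have an entry in the promoter table (*Hspb8*, *Hspb3* and *Hspb6*), and for *Hspb1* and *Cryaa* beside them. RefSeq promoters (GRCm38.p6) were matched for 6 of the 8 members, and *Cryab* and *Hspb2* had no entry. Each sequence runs 5′ to 3′ on the strand of the gene from 250 bases before the transcription start through 30 bases of the transcript. The second of 2 starts is shown for *Hspb6*. The promoter of its first start and that of *Hspb7* held none of the searched motifs and are not shown. Capitals mark matches to the searched motifs.
Hspb8 (chr5:116422835-116423114, - strand): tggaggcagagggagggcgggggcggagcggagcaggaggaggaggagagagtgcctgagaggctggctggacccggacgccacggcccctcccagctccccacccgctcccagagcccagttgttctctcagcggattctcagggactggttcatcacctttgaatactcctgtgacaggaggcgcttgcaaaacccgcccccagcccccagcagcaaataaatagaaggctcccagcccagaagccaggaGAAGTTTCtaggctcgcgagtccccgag
Hspb1 (chr5:135887669-135887948, + strand): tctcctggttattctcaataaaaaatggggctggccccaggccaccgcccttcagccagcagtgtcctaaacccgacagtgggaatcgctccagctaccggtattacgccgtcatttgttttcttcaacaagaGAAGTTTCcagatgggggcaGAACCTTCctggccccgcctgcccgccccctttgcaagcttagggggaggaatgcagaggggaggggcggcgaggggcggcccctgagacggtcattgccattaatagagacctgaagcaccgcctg
Hspb3 (chr13:113663647-113663926, - strand): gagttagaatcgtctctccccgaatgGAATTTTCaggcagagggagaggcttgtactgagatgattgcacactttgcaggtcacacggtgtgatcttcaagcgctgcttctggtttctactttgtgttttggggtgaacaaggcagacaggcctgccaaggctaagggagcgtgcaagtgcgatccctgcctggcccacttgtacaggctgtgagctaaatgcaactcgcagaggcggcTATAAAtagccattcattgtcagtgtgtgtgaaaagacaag
Hspb6 (chr7:30553051-30553330, + strand): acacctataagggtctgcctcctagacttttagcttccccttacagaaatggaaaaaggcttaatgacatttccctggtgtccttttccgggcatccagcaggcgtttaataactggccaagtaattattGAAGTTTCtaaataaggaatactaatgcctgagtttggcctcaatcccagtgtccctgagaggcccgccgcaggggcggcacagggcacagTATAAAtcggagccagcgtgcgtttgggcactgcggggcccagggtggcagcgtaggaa
Cryaa (chr17:31677681-31677960, + strand): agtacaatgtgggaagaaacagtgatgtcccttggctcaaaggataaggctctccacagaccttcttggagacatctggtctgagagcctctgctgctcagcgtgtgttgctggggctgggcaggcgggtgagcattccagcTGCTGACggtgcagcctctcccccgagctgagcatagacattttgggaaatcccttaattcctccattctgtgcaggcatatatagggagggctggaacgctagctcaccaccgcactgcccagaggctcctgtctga
For heat shock elements, only single inverted pairs of GAA units were searched, GAANNTTC and TTCNNGAA, each of which reads the same on both strands. The sequence TATAAA was searched as the TATA box, and TGCTGAC was searched as the core of a Maf site. *Hspb8* held GAAGTTTC from position 3 of the transcript, while *Hspb6* held the same 8 bases 120 bases before its start and *Hspb1* 117 bases before. The further match in *Hspb1*, GAACCTTC, lay 97 bases before the start. *Hspb3* held GAATTTTC at -224 and TATAAA at -11, *Hspb6* held TATAAA at -29, and *Cryaa* held TGCTGAC at -108. Of 32851 mouse promoters of the same length, 7.38% held GAANNTTC, 8.03% TTCNNGAA, 14.2% at least one of both, 13.1% the TATA box and 4.32% the Maf letters. A match describes the letters and not the binding of a factor.

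Total counts per library were 10319320 to 16425331 in the lens, 28154202 to 68243360 in NLPCs and 69190864 to 81384471 in HLE-B3 cells, and values are given as CPM, counts relative to library sizes that were scaled by TMM. *Qk*-iCKO lens 1 stood apart, with a TMM factor of 1.48 against 0.888 to 0.962 in the other lenses. The targeted gene was checked first. *Qk* was at 121 ± 5.67 CPM in Ctrl and 97.7 ± 9.74 CPM in *Qk*-iCKO lenses (log2 fold change −0.31, adjusted p = 0.20), and *QKI* at 261 ± 3.42 CPM in WT and 103 ± 2.54 CPM in *QKI* KO HLE-B3 cells (log2 fold change −1.34, adjusted p = 1.85e-11, edgeR's quasi-likelihood test). In NLPCs, *Qk* counts went against the labels, with 2553 ± 116 CPM in the libraries labelled WT and 3399 ± 273 CPM in those labelled *Qk*-/- (log2 fold change 0.41, adjusted p = 0.0270, edgeR). Whole-gene counts also take up reads from exons outside the deleted one. The sum of 7 lens fibre markers was high in the lens, at 27742 to 29539 CPM in Ctrl and 11214 to 22274 CPM in *Qk*-iCKO lenses. It was near 0 in NLPCs (0.675 to 3.59 CPM) and HLE-B3 cells (1.53 to 5.63 CPM). In the lens *Mip*, *Bfsp1* and *Bfsp2* had the highest levels of this list. *Lim2*, also on it, had 1 count over all Ctrl lenses and 0 counts over all *Qk*-iCKO lenses. Of 5 lens epithelium markers, 4 were counted in every WT NLPC library. The list summed to 143 to 155 CPM there, mostly from *Pax6* (83.0 CPM) and *Cryab* (64.8 CPM), while *Foxe3*, also on it, had 0 counts. In the same WT NLPCs, 6 markers of astrocytes and neural stem cells summed to 4907 to 5415 CPM.

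The 3 systems expressed different parts of the family. Levels were compared between genes per kilobase of the principal transcript, within each table. In Ctrl lenses *Cryaa* (126533 ± 4119 CPM per kb) and *Cryab* (27702 ± 5092 CPM per kb) made up 81.7 and 17.9% of the summed level of the members. They were followed by *Hspb1* (542 ± 327 CPM per kb), *Hspb2* (27.4 ± 1.92), *Hspb3* (7.98 ± 1.59), *Hspb6* (4.93 ± 0.839) and *Hspb8* (0.557 ± 0.305), and no neighbours in this order overlapped. In *Qk*-iCKO lenses *Hspb8* (5.33 ± 1.42 CPM per kb) had passed *Hspb3* (2.07 ± 0.604) and overlapped with *Hspb6* (5.56 ± 1.28).

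The makeup of NLPCs was of another kind. *Cryab* led at 68.5 ± 4.95 CPM per kb in WT NLPCs and was followed by *Hspb8* (24.7 ± 1.84) and *Hspb6* (16.3 ± 0.903), these 3 making up 62.0, 22.4 and 14.8% of the summed level. *Hspb3* (0.579 CPM per kb) and *Hspb2* (0.261) were far lower, and *Cryaa*, *Hspb7* and *Hspb1*, at 0.0561 CPM per kb or less, overlapped. In NLPCs labelled *Qk*-/- *Cryab* (24.8 ± 10.8 CPM per kb, 43.3%) overlapped with *Hspb8* (22.4 ± 5.58, 39.0%).

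In WT HLE-B3 cells *HSPB1* (2181 ± 310 CPM per kb, 76.0%) and *CRYAB* (689 ± 61.6 CPM per kb, 24.0%) made up almost the whole summed level. *HSPB2* (0.515), *HSPB6* (0.284) and *HSPB3* (0.25 CPM per kb) overlapped. In *QKI* KO cells the share of *HSPB1* was 57.7% and that of *CRYAB* 42.3%, and the levels of both genes still did not overlap (1697 ± 307 and 1243 ± 99.7 CPM per kb). Human lengths are uncertain because *CRYAB* has 21 annotated transcripts: per kilobase of merged exons, *HSPB1* stood at 1044 and *CRYAB* at 122 in WT cells, and at 812 and 219 in *QKI* KO cells.

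**Figure D1:**
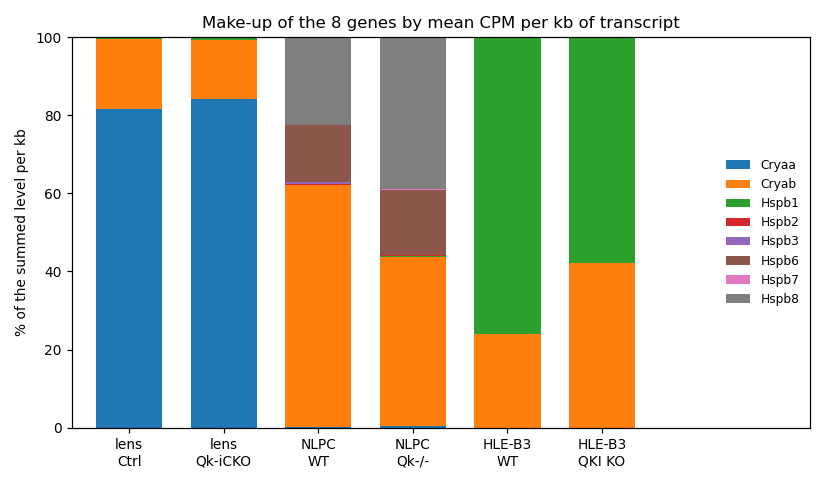
The share of each member in the summed level of the 8 genes (CPM per kb of principal transcript, in percent), for the 6 groups, from the mean of 3 libraries each. *Cryaa* fills 81.7% of the Ctrl lens bar, *Cryab* 62.0% of the WT NLPC bar and *HSPB1* 76.0% of the WT HLE-B3 bar.

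In the lens, 2 members changed with *Qk* deletion: *Hspb8* rose and *Hspb3* fell. Of the 8 members, 7 passed the filter on low counts and 2 were called (1 higher and 1 lower), against 12.3% of all 12201 genes tested (8.38% higher and 3.88% lower, edgeR's quasi-likelihood test, adjusted p under 0.05). The median log2 fold change of the 7 was −0.05, that of all genes 0.01. Ctrl and *Qk*-iCKO values did not overlap for 4 of the 7, against 35.3% of all genes. In these bulk samples, fewer cells of a type and less RNA per cell cannot be told apart.

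*Hspb8* encodes a small heat shock protein that, with the co-chaperone Bag3, hands misfolded clients to autophagy. Its counts were 9, 9 and 24 in the Ctrl lenses and 172, 70 and 116 in the *Qk*-iCKO lenses, or 0.746, 0.642 and 1.65 against 10.6, 6.78 and 11.7 CPM. All *Qk*-iCKO lenses stood above all Ctrl lenses. The log2 fold change was 3.23 ± 0.39 (SE), a 9.40-fold higher level (adjusted p = 0.00309, edgeR's quasi-likelihood test). With each lens left out in turn it stayed between 2.97 and 3.78, with an adjusted p of at most 0.0252.

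Of the 5 partners of Hspb8 in chaperone-assisted autophagy, 4 were tested in the lens and 2 rose, against 8.38% of all genes called higher. *Flnc*, filamin C, an actin crosslinker and client of the complex, was at 0.414, 0.428 and 0.892 CPM in Ctrl and at 34.9, 29.1 and 44.6 CPM in *Qk*-iCKO lenses (log2 fold change 5.92 ± 0.32 SE, adjusted p = 0.000173, edgeR). *Sqstm1*, the autophagy receptor p62, was at 97.4, 91.8 and 99.5 CPM in Ctrl and at 355, 341 and 477 CPM in *Qk*-iCKO lenses (log2 fold change 2.02 ± 0.19 SE, adjusted p = 0.00105). For both genes the groups were wide apart. *Bag3* stood at 9.45, 5.77 and 6.04 CPM in Ctrl and at 10.4, 10.2 and 9.39 CPM in *Qk*-iCKO lenses (log2 fold change 0.50, adjusted p = 0.179), and *Stub1*, a ubiquitin ligase, was close to 0 (−0.02, adjusted p = 0.956). *Synpo2* had too few counts.

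**Figure D2:**
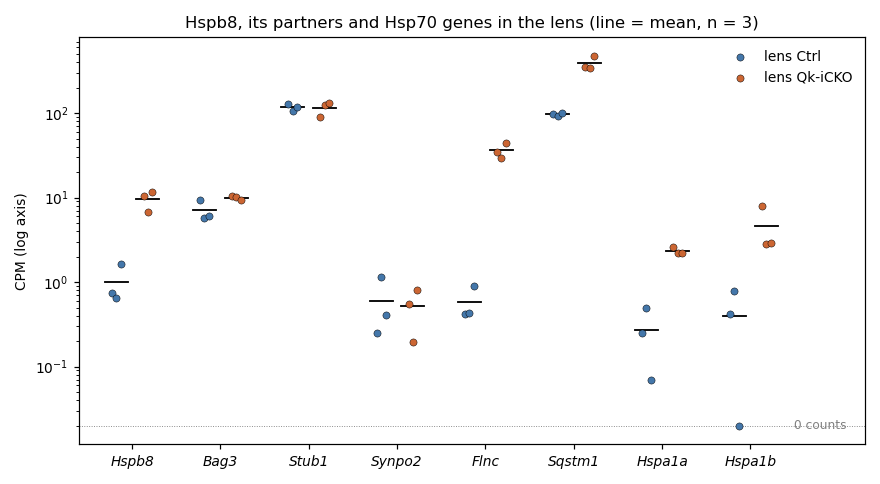
CPM of *Hspb8*, its 5 partners and the Hsp70 genes *Hspa1a* and *Hspa1b* in each of 3 Ctrl and 3 *Qk*-iCKO lenses, on a log axis, with short lines at the group means and a library of 0 counts on the dotted line. The points of *Hspb8*, *Flnc*, *Sqstm1* and both Hsp70 genes are apart between the groups, and those of *Bag3*, *Stub1* and *Synpo2* overlap.

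Chaperones, heat shock factors and clients were read beside these genes in the lens. Of 12 chaperones known as Hsf1 targets, 2 rose and none fell, against 12.3% of all genes called: *Hspa1a* (0.272 ± 0.216 against 2.34 ± 0.204 CPM, log2 fold change 3.07 ± 0.52 SE, adjusted p = 0.0103) and *Hspa1b* (0.400 ± 0.392 against 4.55 ± 2.92 CPM, log2 fold change 3.51 ± 0.84 SE, adjusted p = 0.0350, edgeR). These genes are near-identical Hsp70 paralogs, so reads may be split between them, and 0 to 2 were called with a single lens left out (0 without Ctrl lens 1, 1 without Ctrl lens 2, Ctrl lens 3, *Qk*-iCKO lens 1 or *Qk*-iCKO lens 2). The median log2 fold change of the 12 was −0.09. None of the 3 heat shock factors passed in edgeR or DESeq2, adjusted or at an unadjusted p under 0.05, and *Hsf4*, the lens heat shock factor, stood at 199 ± 12.1 CPM in Ctrl and 193 ± 51.7 CPM in *Qk*-iCKO lenses. Of 6 intermediate filament genes, known clients of α-crystallins, 5 were tested and 1 rose, *Nes* (nestin, log2 fold change 2.19 ± 0.35 SE, adjusted p = 0.00871). Of 14 β- and γ-crystallins, 0 passed in edgeR (1 at an unadjusted p under 0.05, and 2 in DESeq2), with a median log2 fold change of −0.13. *Cryba1* (−0.62), *Cryba2* (−0.90), *Cryba4* (−0.75), *Crybb2* (−0.55) and *Crygs* (−0.48) were lower in each *Qk*-iCKO lens than in any Ctrl lens. Groups overlapped for the others, with changes from −0.81 (*Crygn*) to 0.29 (*Cryga*). Over all genes tested, groups did not overlap for 35.3%.

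Leukocyte markers moved with the same samples. All 6 were called higher in *Qk*-iCKO lenses, against 8.38% of all genes. Their summed level was 1.14 to 2.27 CPM in Ctrl and 68.8 to 92.9 CPM in *Qk*-iCKO lenses. Pigment cell markers summed to 2.54 to 6.05 CPM in Ctrl and to 109, 10.9 and 6.36 CPM in *Qk*-iCKO lenses 1, 2 and 3. The part of these cells in the levels of *Hspb8*, *Flnc*, *Sqstm1*, *Nes* and the Hsp70 genes was not tested.

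*Hspb3* encodes a small heat shock protein of muscle, where it forms a complex with Hspb2. Its counts were 71, 73 and 111 in Ctrl and 18, 21 and 17 in *Qk*-iCKO lenses, or 5.88, 5.20 and 7.62 against 1.10, 2.03 and 1.72 CPM. Every *Qk*-iCKO lens stood below every Ctrl lens. The level was 3.91-fold lower (log2 fold change −1.97 ± 0.30 SE, adjusted p = 0.00705, edgeR), and no lens left out in turn ended the call (adjusted p at most 0.0376). The 10 muscle markers summed to 33.4 to 87.0 CPM in Ctrl and to 33.3 to 105 CPM in *Qk*-iCKO lenses. Of the 4 tested 1 was lower, *Myl2* (log2 fold change −2.06), against 3.88% of all genes. Groups overlapped for the other tested markers, *Acta2* (49.6 CPM in Ctrl, 62.5 CPM in *Qk*-iCKO lenses), which made up most of the sum, *Ttn* (1.37 to 1.52 CPM) and *Ckm* (2.22 to 1.62 CPM). Some untested muscle markers had higher means in *Qk*-iCKO lenses without overlap, *Myh11* (0.349 to 1.70 CPM), *Tagln* (0.120 to 1.13 CPM) and *Des* (0.0924 to 1.06 CPM). Among the untested markers that overlapped, *Acta1* had a lower mean (0.194 to 0.0732 CPM), and *Cnn1* and *Actc1* had 1 count in each group. The part of muscle cells in the level of *Hspb3* was not tested. Its partner *Hspb2* did not pass, at 20.4, 20.3 and 22.9 CPM in Ctrl and 19.6, 18.0 and 23.7 CPM in *Qk*-iCKO lenses (log2 fold change −0.05 ± 0.15 SE, adjusted p = 0.854).

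The α-crystallins were lower in each *Qk*-iCKO lens than in any Ctrl lens, without passing the test across genes. *Cryba1*, *Cryba2*, *Cryba4*, *Crybb2* and *Crygs* shared this separation, as given above. *Cryaa* was at 163779, 153452 and 158785 CPM in Ctrl and at 87379, 142972 and 140710 CPM in *Qk*-iCKO lenses. *Qk*-iCKO lens 1, the lowest, was also the lowest in lens fibre markers (11214 CPM), but its TMM factor of 1.48 lowered both values. Fibre markers were not compared by total counts alone, and the part of fibre content in the *Cryaa* value was not tested. The log2 fold change of *Cryaa* was −0.36 ± 0.37 (SE, adjusted p = 0.573, edgeR), −0.16 without this lens and −0.14 with total counts alone. As a share of counts, *Cryaa* stood at 12.9% in this lens and at 13.1 and 13.5% in the other *Qk*-iCKO lenses. *Cryab* was at 31446, 21970 and 25203 CPM in Ctrl and at 14121, 17823 and 19114 CPM in *Qk*-iCKO lenses (log2 fold change −0.62 ± 0.29 SE, adjusted p = 0.203). DESeq2 called *Cryab* at a like log2 fold change of −0.63 (adjusted p = 0.0186).

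As a share of all counts, which amounts to scaling by total counts alone, both α-crystallins together took up 16.3 to 17.6% in Ctrl and 14.7 to 15.3% in *Qk*-iCKO lenses. The difference of means was −1.88 percentage points (exact permutation test, two-sided p = 0.10, the smallest that 3 lenses against 3 allow). The level per kilobase of *Cryaa* was 4.65 ± 0.676 times that of *Cryab* in Ctrl and 5.42 ± 0.701 times in *Qk*-iCKO lenses, values that overlapped (exact permutation test, two-sided p = 0.30). None of the 7 transcription factors listed for α-crystallin genes passed in the lens, by edgeR, DESeq2 or an unadjusted p under 0.05.

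*Hspb1* (Hsp27), a stress-inducible chaperone of actin filaments, varied within each group more than between them. It was at 820 CPM in Ctrl lens 1 and at 254 and 393 CPM in the other Ctrl lenses, against 370, 940 and 517 CPM in *Qk*-iCKO lenses (log2 fold change 0.32 ± 0.49 SE, adjusted p = 0.718). *Hspb6* (Hsp20), a phosphoprotein of smooth and heart muscle, was at 6.21, 5.92 and 8.03 CPM in Ctrl and at 6.38, 6.78 and 9.59 CPM in *Qk*-iCKO lenses (log2 fold change 0.17 ± 0.22 SE, adjusted p = 0.670). *Hspb7*, the cardiovascular member, had 0 counts in the Ctrl lenses and 1, 0 and 3 counts in the *Qk*-iCKO lenses. Counts of 0 allow up to 3 counts, or 0.206 to 0.249 CPM per Ctrl lens, by counting error only.

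**Figure D3:**
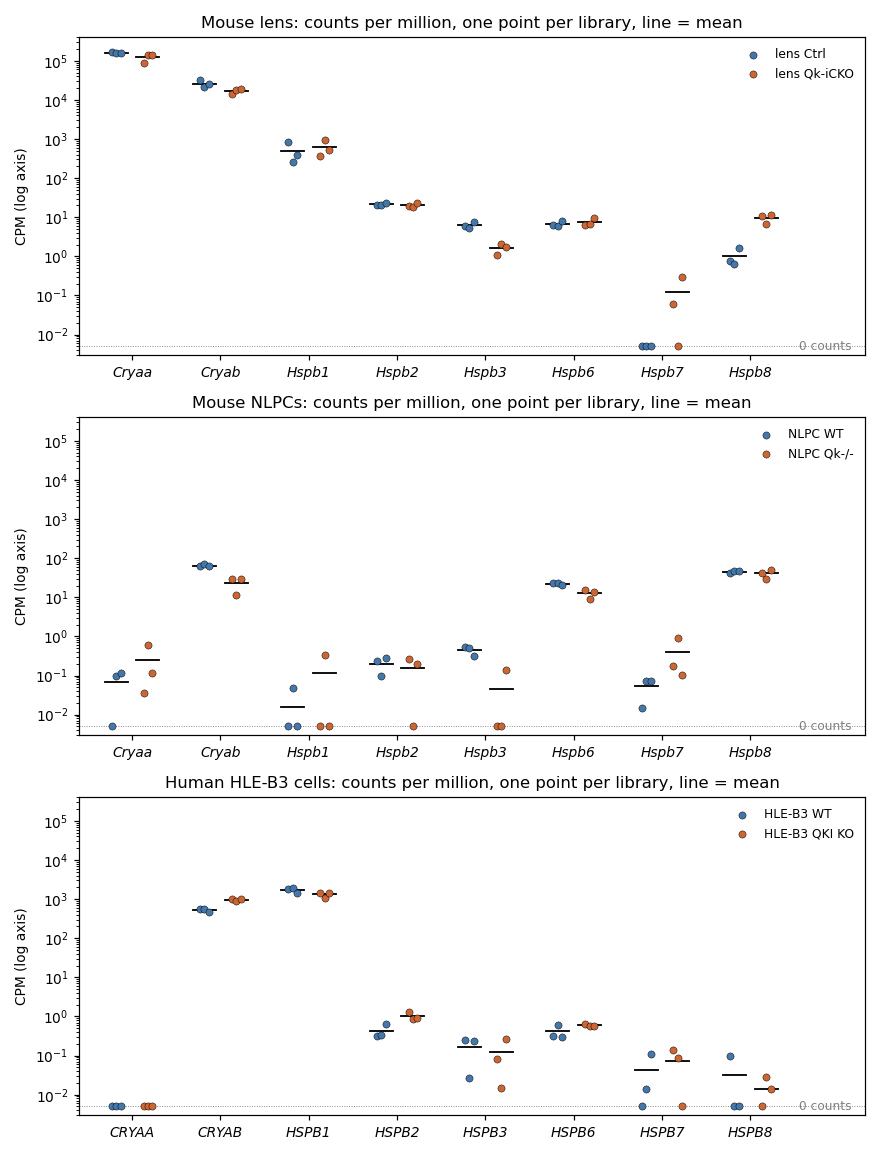
CPM of each of the 8 members in each library of the 3 systems, on a log axis, with blue points for control and orange points for deletion libraries, short lines at the group means and libraries of 0 counts on the dotted line. Groups are apart, among the called genes, for *Hspb8* and *Hspb3* in the lens, for *Cryab* and *Hspb6* in NLPCs and for *CRYAB* and *HSPB2* in HLE-B3 cells.

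In NLPCs, *Cryab* and *Hspb6* were lower in the libraries labelled *Qk*-/-, in which *Qk* itself was counted higher, and no tested member was called higher. Of the 8 members 5 passed the filter, and 2 were called, both lower, against 10.7% of 20371 genes tested (4.74% higher and 5.96% lower). The median log2 fold change of the 5 was −0.78, that of all genes 0.04, and groups did not overlap for 3 of the 5 against 35.2% of all genes. *Cryab* was at 61.3, 70.1 and 62.9 CPM in WT and at 29.6, 11.7 and 29.3 CPM in NLPCs labelled *Qk*-/-, with each library labelled *Qk*-/- below each library labelled WT. This was 2.74-fold lower (log2 fold change −1.45 ± 0.31 SE, adjusted p = 0.0232, edgeR). *Hspb6* was at 23.2, 22.7 and 20.8 CPM in WT and at 15.5, 9.22 and 13.9 CPM in NLPCs labelled *Qk*-/-, again without overlap. It was 1.72-fold lower (log2 fold change −0.78 ± 0.19 SE, adjusted p = 0.0372).

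Both calls were lost in some fits with a single library left out. The call of *Cryab* was lost without library 1, 2 or 3 labelled WT or library 1 labelled *Qk*-/- (adjusted p = 0.0910, 0.0973, 0.107 and 0.0587), and that of *Hspb6* also without library 3 labelled *Qk*-/- (0.152, 0.13, 0.142, 0.0595 and 0.0747), while the log2 fold changes stayed below 0 (−1.65 to −1.13 and −0.94 to −0.59). Astrocyte and neural stem cell markers moved with *Cryab*, a gene that astrocytes express: they summed to 4907 to 5415 CPM in WT and 3192 to 3656 CPM in NLPCs labelled *Qk*-/-. Of these 6 markers, 1 was called higher (*Aqp4*) and 3 lower (*Slc1a3*, *Gfap*, *Sox2*), against 4.74 and 5.96% of all genes. Their part in the lower *Cryab* was not tested.

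*Hspb8*, which rose in the lens, was at 41.0, 46.8 and 46.8 CPM in WT and at 42.0, 29.9 and 50.0 CPM in NLPCs labelled *Qk*-/-, with overlapping groups (log2 fold change −0.14 ± 0.18 SE, adjusted p = 0.656). *Hspb3* had 37, 21 and 22 counts in WT and 0, 0 and 8 counts in NLPCs labelled *Qk*-/-, too few for a call (log2 fold change −3.15 ± 1.39 SE, adjusted p = 0.195, edgeR). Without library 3 labelled *Qk*-/- both remaining libraries were at 0. *Hspb2* had 16, 4 and 19 against 15, 0 and 12 counts (adjusted p = 0.892).

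The remaining 3 members were close to the limit of detection in NLPCs and were not tested. *Cryaa* had 0, 4 and 8 counts in WT and 2, 18 and 7 in NLPCs labelled *Qk*-/-. *Hspb1*, abundant in the other systems, had 2 counts in all of the WT libraries and 10 in the libraries labelled *Qk*-/-, all 10 in the second of them. *Hspb7* had 1, 3 and 5 counts in WT and 10, 27 and 6 in NLPCs labelled *Qk*-/-, so its groups did not overlap.

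Of the related lists in NLPCs, none of the 12 Hsf1-target chaperones was called in edgeR (3 at an unadjusted p under 0.05, 1 in DESeq2). None of the 5 partners of Hspb8 (1 unadjusted, 1 in DESeq2) and none of the 3 heat shock factors (1 unadjusted, 1 in DESeq2) was called either. Over all genes tested, 4.74% were called higher and 5.96% lower. Of 5 tested intermediate filament genes, 1 fell, *Gfap* (log2 fold change −1.38 ± 0.20 SE, adjusted p = 0.00507). Of the 7 factors of α-crystallin genes, *Maf* rose (log2 fold change 1.42, adjusted p = 0.0142) and *Sox2* fell (−0.34, adjusted p = 0.0289), but with the replicate number as a block only *Maf* was called, and neither was called without any single WT library. Of the β- and γ-crystallins, 1 was tested and it was not called by either tool or at an unadjusted p under 0.05.

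In HLE-B3 cells, *CRYAB* and *HSPB2* rose and *HSPB1* fell with *QKI* deletion, although the calls of *HSPB1* and *HSPB2* were lost in some of the alternatives run and that of *CRYAB* in none. Of the 8 members 5 were tested and 3 called, where 33.3% of 19049 genes tested were called (17.0% higher and 16.3% lower). The median log2 fold change of the 5 was 0.55, that of all genes −0.02, and groups did not overlap for 2 of the 5 against 44.6% of all genes. *CRYAB* was at 570, 551 and 479 CPM in WT and at 997, 874 and 1015 CPM in *QKI* KO cells, with every *QKI* KO library above every WT library. It was 1.80-fold higher (log2 fold change 0.85 ± 0.07 SE, adjusted p = 7.69e-08, edgeR), and 0.79 to 0.92 on the log2 scale with a single library left out.

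*HSPB1*, the most abundant member in these cells, was at 1783, 1878 and 1422 CPM in WT and at 1446, 1043 and 1466 CPM in *QKI* KO cells. The groups overlapped, as WT library 3 lay below *QKI* KO libraries 1 and 3. edgeR called it 1.29-fold lower (log2 fold change −0.36 ± 0.11 SE, adjusted p = 0.0160), and DESeq2 did not (adjusted p = 0.144). The call was lost without WT library 1 or 2 or *QKI* KO library 2 (adjusted p = 0.0866, 0.134 and 0.0504). *HSPB1* has the annotated pseudogenes *HSPB1P1* and *HSPB1P2*, with which reads could be shared.

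*HSPB2* stood near the limit of detection, with 26, 24 and 47 counts in WT and 94, 58 and 68 counts in *QKI* KO cells. The groups did not overlap, and the level was 2.34-fold higher (log2 fold change 1.23 ± 0.44 SE, adjusted p = 0.0429, edgeR). Without WT library 1 or 2 or *QKI* KO library 1 or 3 the adjusted p was 0.106, 0.116, 0.171 and 0.0715. *HSPB3* had 20, 2 and 17 against 6, 1 and 20 counts (adjusted p = 0.789), and *HSPB6* 26, 45 and 22 against 48, 40 and 43 counts (adjusted p = 0.454).

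The last 3 members were absent or nearly so. *CRYAA* had 0 counts in all 6 libraries, which allows up to 3 counts, or 0.0367 to 0.0434 CPM per library, by counting error only. *HSPB7* had 0, 1 and 8 against 10, 6 and 0 counts, and *HSPB8* had 8, 0 and 0 against 0, 2 and 1 counts.

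All 5 partners of HSPB8 were called in HLE-B3 cells, against 33.3% of all genes, where *HSPB8* itself was hardly counted. *SYNPO2* (log2 fold change 1.08), *STUB1* (0.30) and *FLNC* (0.14) rose, and *SQSTM1* (−0.61, adjusted p = 3.53e-07) and *BAG3* (−0.44, adjusted p = 1.57e-06) fell. *SQSTM1* thus had opposite signs in *Qk*-iCKO lenses and *QKI* KO cells, a difference that was not tested across species. Of the 12 Hsf1-target chaperones 5 rose and 3 fell, against 17.0 and 16.3% of all genes, the largest changes being those of *CHORDC1* (0.84), *DNAJA1* (0.44), *HSPE1* (−0.28) and *HSPD1* (0.25), which are co-chaperones of Hsp90 and Hsp70 and the mitochondrial chaperonin pair. The 3 heat shock factors were not called in edgeR or DESeq2, and 0 had an unadjusted p under 0.05.

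The lists below are to be read against 17.0% of all genes called higher and 16.3% called lower in these cells. Among intermediate filament genes *NES* (log2 fold change −1.25) and *VIM* (−0.13, vimentin) fell of 4 tested, but 1 to 2 were called with a single library left out and 1 by DESeq2, with *NES* called each time. Among factors of α-crystallin genes *MAF* (−4.29), *SIX3* (−2.42) and *PROX1* (−1.06) fell of 6 tested, all at under 3 CPM. With a single library left out, 1 to 2 of the 6 factors were called. Of the β- and γ-crystallins 1 was tested and not called by either tool or at an unadjusted p under 0.05. The muscle markers, which HLE-B3 cells express in part, summed to 1428 to 1549 CPM in WT and to 2313 to 2687 CPM in *QKI* KO cells, with *TAGLN* (0.79), *ACTA2* (0.76) and *ACTC1* (1.00) higher and *CNN1* (−2.04) lower on the log2 scale. Their part in the higher *CRYAB* and *HSPB2* was not tested.

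**Figure D4:**
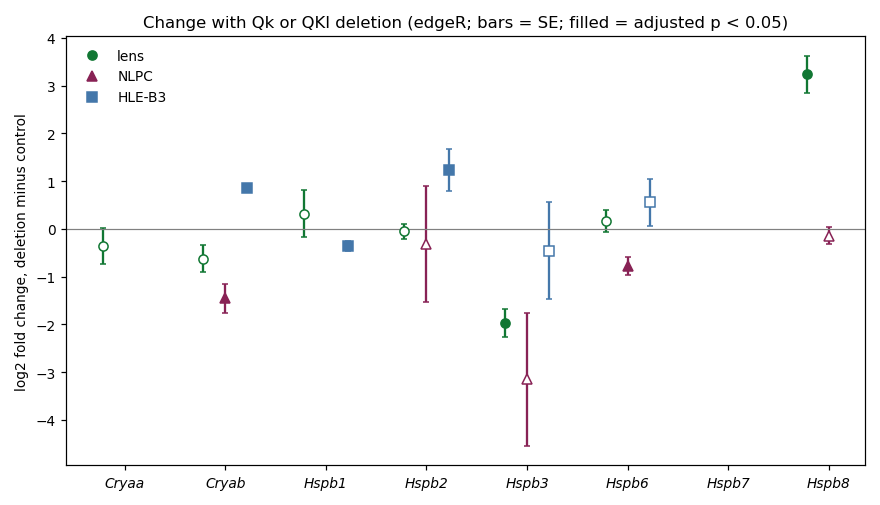
Log2 fold changes, deletion against control, of the members tested in each system, with bars of 1 SE and filled points where the adjusted p was under 0.05 (edgeR). *Hspb8* (3.23) and *Hspb3* (−1.97) in the lens lie farthest from 0 among the filled points, and *Cryab* lies below 0 in the lens and NLPCs and above 0 in HLE-B3 cells.

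*Cryab* and *Hspb2* lie head to head, and their levels were compared within each library. In the mouse (GRCm38), *Cryab* spans chr9:50751325-50756636 on the + strand and *Hspb2* chr9:50751078-50752354 on the − strand, and the starts of their principal transcripts are 614 bases apart. Since 1 of 6 *Cryab* transcripts starts within *Hspb2*, 252 exon bases are shared, 30.2% of the exon bases of *Hspb2*. In the human genome (GRCh37), *CRYAB* (chr11:111779288-111794446, − strand) has 4 of 21 transcripts over exons of *HSPB2* (chr11:111783458-111784817, + strand), with 598 bases shared, 70.9% of the *HSPB2* exons. Whether counting used the strand of the reads is not given in the sources used here, so reads on the shared bases cannot be assigned with certainty.

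*Cryab* was far the more abundant of the pair, with 1241 ± 261 counts per *Hspb2* count in Ctrl and 838 ± 138 in *Qk*-iCKO lenses. On the log2 scale, with 2 counts added to each gene, *Cryab* exceeded *Hspb2* by 10.25 ± 0.29 in Ctrl and by 9.69 ± 0.23 in *Qk*-iCKO lenses, a difference of −0.56 (exact permutation test, two-sided p = 0.10, the smallest possible). In NLPCs the excess was 8.17 ± 0.68 in WT and 6.99 ± 0.41 in libraries labelled *Qk*-/-, a difference of −1.17 (exact permutation test, two-sided p = 0.10), on *Hspb2* counts of 0 to 19. With 0.5 counts added this difference was −0.63, the groups overlapped and the exact permutation p was 0.60, since 1 library labelled *Qk*-/- had 0 *Hspb2* counts. In HLE-B3 cells it was 10.25 ± 0.69 in WT and 9.87 ± 0.26 in *QKI* KO libraries, a difference of −0.38 (exact permutation test, two-sided p = 0.40), as *CRYAB* and *HSPB2* both rose. The mean excess of *Cryab* was thus lower in the deletion libraries of each system, and the groups were apart in the lens with either number of added counts.

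Genes within 50 kb were read beside the pair. In the lens none of the 5 tested neighbours was called, with log2 fold changes of −0.56 for *Dixdc1* (adjusted p = 0.106) and *Fdxacb1* (adjusted p = 0.246) and of −0.20 to −0.02 for the others. In NLPCs none of the 4 tested neighbours was called, with log2 fold changes from −0.84 for *Fdxacb1* to −0.12 for *Alg9*. In HLE-B3 cells *DIXDC1*, a Wnt pathway protein gene, rose from 79.2 ± 2.59 to 127 ± 1.67 CPM (log2 fold change 0.68 ± 0.06 SE, adjusted p = 1.20e-07, edgeR), and *ALG9*, a glycosyltransferase gene, from 12.3 ± 1.12 to 17.2 ± 0.477 CPM (0.49 ± 0.10 SE, adjusted p = 0.00117). The other tested neighbours, *FDXACB1* (0.08), *C11orf1* (0.07) and *C11orf52* (0.69, adjusted p = 0.579), did not pass. Calls were common in these cells, at 33.3% of all genes tested. *CRYAB* and *HSPB2* were also called higher there, but 70.9% of the exon bases of *HSPB2* are shared with *CRYAB*. The readthrough gene *HSPB2-C11orf52* had 0 counts in every library. It lies over *HSPB2* and *C11orf52*, and how reads on several genes were counted is not given in the sources used here. Its counts therefore cannot show whether the readthrough was made.

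**Figure D5:**
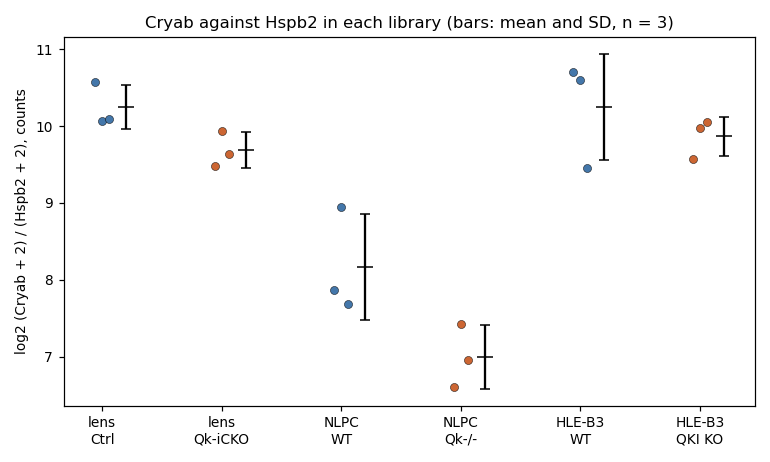
Log2 of *Cryab* over *Hspb2* counts, with 2 counts added to each, in every library (points) and as mean ± SD of 3 libraries (bars), for the 6 groups. With these added counts, the points of control and deletion libraries are apart in the lens and in NLPCs and overlap in HLE-B3 cells.

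Whether a member changed differently in lens and NLPCs was tested as an interaction in a joint fit of the 12 mouse libraries. Of the 7 members tested, *Hspb8* was called, where 8.53% of all 16675 genes were. Its log2 fold change in NLPCs minus that in the lens was −3.29 ± 0.42 (SE, adjusted p = 0.000680, edgeR). The control levels also lay far apart, at 0.557 ± 0.305 CPM per kb in Ctrl lenses and 24.7 ± 1.84 CPM per kb in WT NLPCs, from tables that were scaled separately. For *Hspb6* the difference was −0.86 ± 0.31 SE (adjusted p = 0.11) and for *Cryab* −0.76 ± 0.46 SE (adjusted p = 0.354), so neither was shown to differ between lens and NLPCs. For *Hspb3*, with lower means in the deletion libraries of both systems, it was −0.94 (adjusted p = 0.560). *Hspb1*, *Cryaa* and *Hspb2* had adjusted p-values of 0.581, 0.331 and 0.981.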

How the data were processed

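Total RNA of 18 libraries was prepared with a stranded TruSeq kit, and the authors aligned paired-end reads with STAR 2.6.1b to mm10 or hg19 and counted them per gene with HTSeq 0.11.0. The submitters' processing notes also name HISAT2 2.0.4 and featureCounts, whose role is not given in the sources used here. The authors deposited these counts without normalization, with 1 table for each system. Each system was fitted alone with edgeR 4.0.16 in R 4.3.3 on the whole table: genes were kept by filterByExpr (minimum count 10, minimum total 15), library sizes scaled by TMM, and groups compared by the quasi-likelihood test without covariates, with Benjamini-Hochberg adjustment over all genes tested and a threshold of 0.05. The fit was tested on simulated data. Ratios within libraries were compared by exact permutation tests (scipy 1.17.1). Per-kilobase levels used the annotated principal transcript.

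Named genes are the 8 members, neighbours of *Cryab* and *Hspb2* within 50 kb, *Qk*, *Hsf4* and *Bag3*, and of each list at most 4 called genes per system with the largest changes. Neighbours, the other *Hspb8* partners, some β- and γ-crystallins, and *Myl2* and the other markers are named beside the result they touch. Members and lists were chosen with earlier results of these data known. After subtraction of group means, libraries with the same replicate number correlated at 0.233, 0.133 and 0.523 in the lens and at 0.123, 0.320 and 0.145 in NLPCs (0.0613, 0.0566 and -0.0495 in HLE-B3), so the numbers were taken to pair mouse libraries, from the data and not from a stated litter or batch. Some unlike numbers correlated more, Ctrl lens 2 with *Qk*-iCKO lens 1 at 0.279 and NLPC libraries WT 1 with *Qk*-/- 3 at 0.232. The alternatives were RLE or total-count scaling, TMM without crystallins, other count filters, DESeq2 1.42.0, a replicate block, each library left out, a prior of 0.5 and, chosen after seeing the data, merged exon lengths and the list counts. Sequences are from RefSeq.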

Additional observations from a re-analysis of the deposited data

Results flagged for a closer look

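*Hspb8* changed differently in the mouse systems: the interaction of deletion and system was -3.29 on the log2 scale (NLPC minus lens, edgeR), as *Qk*-iCKO lenses rose above Ctrl lenses while NLPC groups overlapped.

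*Cryab* stood lower in each *Qk*-iCKO lens and each NLPC library labelled *Qk*-/- than in any control library, and higher in each *QKI* KO HLE-B3 library. Over all genes tested, groups did not overlap for 35.3% in the lens, 35.2% in NLPCs and 44.6% in HLE-B3 cells. *Cryab* was not called in the lens (adjusted p = 0.203, edgeR), and in NLPCs the call was lost in 4 of 6 fits with a single library left out. Its log2 fold change in HLE-B3 cells exceeded that in the lens by 1.47 and that in NLPCs by 2.31. These differences were not tested, since human and mouse tables were fitted separately.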

How the results depend on the processing

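The calls of *Hspb8* and *Hspb3* in the lens and of *CRYAB* in HLE-B3 cells held in every alternative that tested them. With at least 10 counts required in every library, 1 member was called in the lens, since *Hspb8* had 9 counts in a pair of Ctrl lenses and was not tested. With single libraries left out, members called were 2 to 2 in the lens, 0 to 2 in NLPCs and 1 to 3 in HLE-B3 cells, and 1 to 2 in the interaction, where *Hspb3* was also called without NLPC library 3 labelled *Qk*-/- (-4.53, adjusted p = 0.0265, edgeR). Libraries whose removal ended a call are named in the report, and no cause was tested.

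With the replicate number as a block, no call of a member changed in the lens or NLPCs, and *HSPB2* in HLE-B3 cells, where the numbers do not pair libraries, stood at 1.28 on the log2 scale (adjusted p = 0.0516). The paired test of the *Cryab* to *Hspb2* ratio gave p = 0.25 in lens and NLPCs, the smallest that 3 pairs allow in this exact permutation test. *HSPB2* was also not called with total counts alone (0.0549) or every gene of at least 1 count (0.0702). With single libraries left out, uncalled members ranged across 0: in the lens *Hspb1* from -0.14 (without *Qk*-iCKO 2; -0.0031 without Ctrl 2) to 0.90, *Hspb2* from -0.17 to 0.025 and *Hspb6* from -0.035 to 0.31, in NLPCs *Hspb2* from -0.92 to 0.21 and *Hspb8* from -0.33 to 0.042, and *HSPB3* in HLE-B3 cells from -1.76 to 0.064. Total counts alone gave 0.23 for *Hspb2* in the lens. The interaction ranged from -2.11 to 3.88 for *Hspb1* and from -0.55 to 0.27 for *Hspb2* (0.023 without *Qk*-iCKO 3, 0.17 without NLPC WT 3).

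Over all genes, total counts alone moved the lens median by 0.29 log2, with 768 genes higher and 116 lower against 1023 and 473, and the interaction median from -0.020 to -0.34, with 156 higher and 861 lower against 535 and 888. Genes called were 884 in the lens with total counts alone, 2521 with every gene of at least 1 count and 581 to 1709 with single lenses left out. In NLPCs they were 3841 by DESeq2 and 681 to 3797 with single libraries left out. DESeq2 called 1094 interactions higher and 1379 lower. Merged exon lengths or total counts alone moved 17 of 96 levels per kilobase by over 1 SD. *Hspb7* in every system, *Cryaa* and *Hspb1* in NLPCs and *CRYAA* and *HSPB8* in HLE-B3 cells had too few counts for a test at these depths.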

Other observations

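Of further genes with HSPB names, *HSPB11*, a ciliary transport gene that is not a small heat shock protein by function, rose in HLE-B3 cells from 20.6 ± 2.01 to 25.7 ± 0.707 CPM (log2 fold change 0.32, adjusted p = 0.00954, edgeR), and in the lens and NLPCs the 1 such gene tested was not called by edgeR or DESeq2 (1 and 0 at an unadjusted p under 0.05).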
